A study of Arabidopsis thaliana with 6 samples.

Results

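The chloroplast keeps a small genome of its own. The genes described here are those of its protein-coding genes that do not encode photosynthetic complexes: parts of the plastid ribosome, the plastid RNA polymerase and a few proteins of other functions. They were chosen by name, as probe sets assigned to exactly 1 gene of the plastid chromosome whose symbol does not begin with psa, psb, pet, atp, ndh or rbcL. There were 26 such genes, each with 1 probe set. They were among 13286 genes that the annotation used here pairs with a probe set of their own and that were found in RefSeq. That annotation names no gene for 8730 of the 22746 probe sets other than controls, so 13286 is not the number of genes on the array. They comprised 8 small-subunit ribosomal protein genes (*rps*), 7 large-subunit ribosomal protein genes (*rpl*), 4 RNA polymerase genes (*rpo*) and 7 others (*matK*, *clpP*, *accD*, *ycf3*, *ycf4*, *cemA* and *ccsA*). The genes *rpl2*, *rpl23*, *rps7*, *rps12*, *ycf1* and *ycf2* are not among the 26 because their probe sets are listed for 2 entries of the gene. Of 34 protein-coding symbols on the plastid chromosome that fit the name rule, 8 are not among the 26, so the set is not complete.

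Transcript levels were measured in whole seedlings of *Arabidopsis thaliana*, grown in light and harvested at 5 days of age. The *fbp7-3* mutant (AtFBP7 mutant in the Nossen background, 3 samples) was compared with No-0 wild type seedlings (3 samples), and no treatment is named for either group. *FBP7* encodes an F-box protein, a class of proteins that select the targets of SCF-type ubiquitin ligases. Each sample was hybridised to 1 Affymetrix ATH1 array. The labels give separate lysis of the samples but not separate growth, so the spread that the p-values measure may in part be technical. The annotation used here pairs no probe set with *FBP7*, so the genotype labels were not checked against its transcript.

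Plastid genes are transcribed by a bacterial-type polymerase, whose core subunits the plastid itself encodes, and by phage-type polymerases encoded in the nucleus. Most lie in polycistronic transcription units, and the plastid ribosome that translates their messages is itself assembled from plastid-encoded and nuclear-encoded proteins. Plastid messages mostly lack stable poly(A) tails, and one-cycle labelling, the kit used, generally starts cDNA synthesis at poly(A). The share of each plastid transcript that was labelled was not measured. In whole seedlings, fewer chloroplasts and less RNA per chloroplast cannot be told apart either.

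None of the 26 genes changed in the mutant over all probe sets tested (limma, Benjamini-Hochberg adjusted p under 0.05), where 1.06% of 17059 tested probe sets did, 180 in all. None of the 26 rose, where 0.522% of the tested probe sets did (89), and none fell, where 0.533% did (91). The lowest adjusted p was 0.135, for *ycf3*. At an unadjusted p under 0.05 there were 4, *ycf3*, *rps2*, *rpl20* and *rps14*, against 11.8% of all tested probe sets. All 26 had passed the filter on dim signals. The 95% intervals of the change reached, over the 26 genes, down to a fold of 0.690 (*rpl14*) and up to 1.85 (*rps14*), and the number of arrays limits what could be detected. Changes are log2 changes of signal + 16, mutant minus wild type, with the SE of the fit, and signals are MAS5 intensities on a linear scale, given as mean ± SD (n = 3 in each group).

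The array of wild type replicate 1 was often the lowest of the 6 for plastid genes. That array was the lowest of the 6 for 17 of the 26 genes (65.4%), as it was for 38 of the 43 plastid photosynthetic genes and for 19.3% of all tested probe sets. Relative to the mean of wild type replicates 2 and 3, its log2 signal was lower for 23 of the 26, with a median difference of −0.28 and a range from −1.35 (*rpl36*) to 0.064 (*rps3*). The median of that difference over all tested probe sets was −0.0080. The 5S ribosomal RNA control probe set was lowest on the same array, at 1593, 1456 and 1666 in mutant replicates 1, 2 and 3, against 692, 1328 and 1144 in wild type replicates 1, 2 and 3, and its part in the results was not tested. Mutant replicate 1 was the highest of the 6 for 9 of the 26 genes (34.6%) and 26 of the 43 photosynthetic genes. It was the highest for 14.5% of all tested probe sets. Results for the plastid genes are mostly given both with all 6 arrays and without wild type replicate 1. That array was singled out from these same data. Nuclear loci are given with all 6 arrays only.

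**Figure D1:**
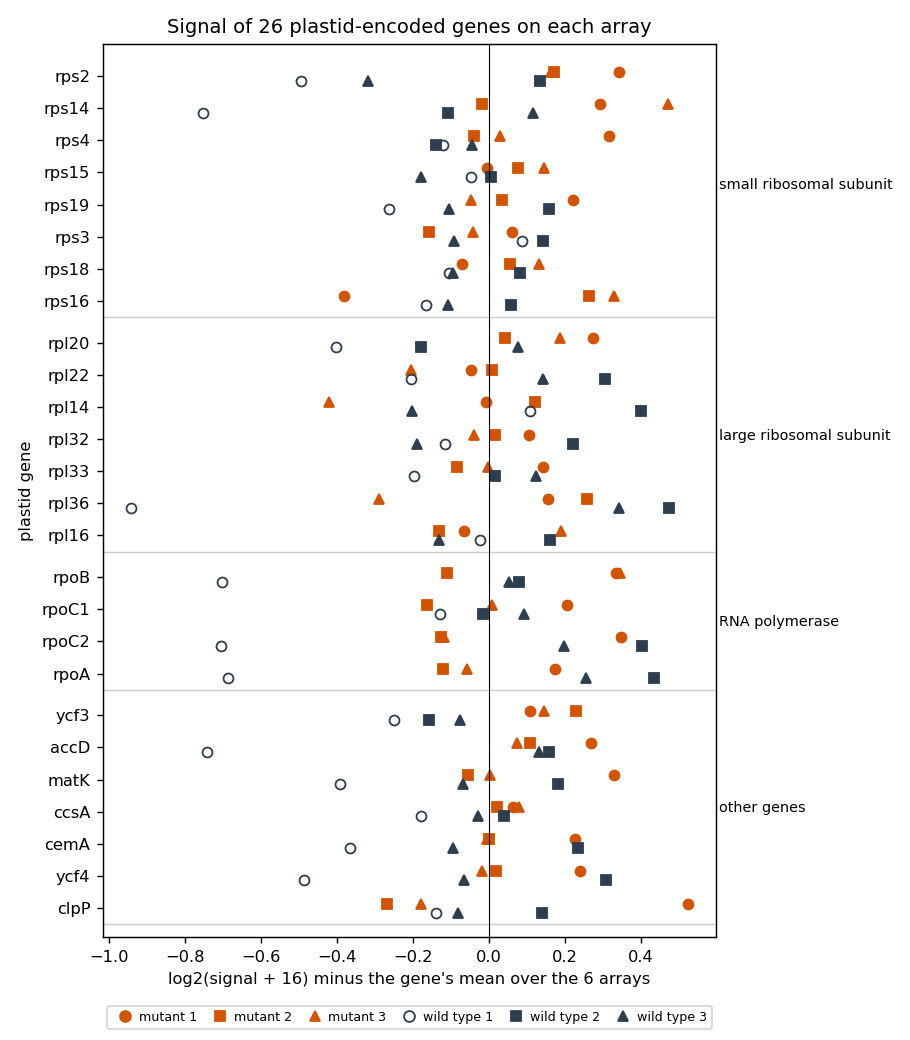
Signal of the 26 genes on each array, as log2(signal + 16) centred on each gene's mean over the 6 arrays (horizontal axis), with mutant arrays above wild type arrays in each row and wild type replicate 1 as an open circle. The open circle lies lowest of the 6 points in 17 of 26 rows, and the 2 groups are apart in 3 rows (*rps2*, *rps4* and *ycf3*).

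Read by direction alone, 21 of the 26 genes had a log2 change above 0, where 49.9% of all tested probe sets did. The median change was 0.12, against −0.0011 over all tested probe sets and 0.19 over the 43 plastid photosynthetic genes, of which 40 lay above 0. Without wild type replicate 1, 15 of the 26 lay above 0, where 48.6% of all tested probe sets did, and the median was 0.0084. Without mutant replicate 1, 18 lay above 0, where 8751 of 17059 tested probe sets did, and the median was 0.070. Leaving out any other single array gave 21 to 23 of the 26, with medians of 0.12 to 0.21. In those fits 8257 to 8632 of 17059 tested probe sets lay above 0. Scaled to the plastid-encoded probe sets as a whole, 8 lay above 0 and the median was −0.054. That scaling takes 0.18 off every change alike, and because the 26 are part of what it scales to, it brings their balance near 0 by construction, here and in the classes below. Under it 19.6% of all tested probe sets lay above 0, with a median of −0.18.

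Every mutant array lay above every wild type array for 3 genes, *rps2*, *rps4* and *ycf3*, where 8.45% of tested probe sets had that order. None lay in the opposite order (8.56% of tested probe sets). The within-group SD on the log2 scale had a median of 0.22 over the 26 genes, against 0.18 over all tested probe sets. It was widest for the polymerase genes, at a median of 0.40, and lowest for *ycf3*, at 0.076. The widest of a single gene was that of *rpl36*, at 0.59.

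The small-subunit genes encode proteins of the part of the plastid ribosome that binds the message. Of the 8, 7 had a change above 0 with a median of 0.14, and none passed the test. The median was 0.13 without wild type replicate 1 and −0.035, with 3 above 0, when scaled to the plastid-encoded probe sets. *rps2* had a signal of 5674, 5044 and 5010.0 in mutant replicates 1, 2 and 3, against 3171, 4918 and 3583 in wild type replicates 1, 2 and 3. All 3 mutant values exceeded all 3 wild type values, but mutant replicate 3 and wild type replicate 2 were close. Its change was 0.45 ± 0.13 (95% interval 0.17 to 0.74, limma adjusted p = 0.145). Among the fits that left out 1 array, *rps2* passed in the one without wild type replicate 2, at 0.63 (adjusted p = 0.014), where 0.674% of tested probe sets passed. Without wild type replicate 1 its change was 0.32 (adjusted p = 0.401).

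*rps14*, which shares a transcription unit with the photosystem I genes *psaA* and *psaB*, had the largest change of the 26 with all 6 arrays, while *rps2* was larger without wild type replicate 1, wild type replicate 2 or mutant replicate 3 and with the RNA quality covariate. Its signal was 1689.8, 1358 and 1916 in mutant replicates 1, 2 and 3, against 809.5, 1276 and 1492 in wild type replicates 1, 2 and 3. The groups overlapped, since wild type replicate 3 exceeded mutant replicate 2. Its change was 0.50 ± 0.18 (95% interval 0.11 to 0.89, limma adjusted p = 0.278) and 0.25 without wild type replicate 1. The neighbours had changes of 0.16 ± 0.12 (*psaB*) and 0.064 ± 0.22 (*psaA*), or 0.042 and −0.19 without wild type replicate 1.

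Among the other 6, *rps4* averaged 10054 ± 1354 in mutant seedlings and 8684 ± 301 in wild type seedlings, with the groups apart and a change of 0.20 ± 0.10 (adjusted p = 0.461). The change of *rps4* was nearly as large without wild type replicate 1, at 0.19. *rps15* averaged 1231 ± 64.3 in mutant seedlings and 1112 ± 72.9 in wild type seedlings, a change of 0.15 ± 0.10, and is one of the 3 genes (with *rps3* and *rpl14*) for which wild type replicate 1 was not below the mean of wild type replicates 2 and 3. *rps19* had a change of 0.14 ± 0.11 and *rps18* one of 0.078 ± 0.095, or 0.043 (*rps19*) and 0.046 (*rps18*) without wild type replicate 1. *rps16*, which carries an intron, had the lowest signals of the 26, at 376 ± 97.4 in mutant seedlings and 332 ± 28.3 in wild type seedlings, and a change of 0.14 ± 0.18, or 0.095 without wild type replicate 1. Mutant replicate 1 was its lowest array, at 264, and mutant replicates 2 and 3 its highest, at 422 and 442. *rps3* was the single small-subunit gene with a change below 0, −0.092 ± 0.10. Signals of different probe sets do not rank transcript levels, so no order of abundance is read from them.

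The large-subunit genes encode proteins of the part of the plastid ribosome that forms peptide bonds. Of the 7, 4 had a change above 0 and 3 below, with a median of 0.037 that turned to −0.052 without wild type replicate 1, to −0.025 without wild type replicate 3, to −0.053 with quantile normalization and to −0.14 when scaled to the plastid-encoded probe sets. None passed the test. *rpl20* had a signal of 2284, 1942 and 2149.7 in mutant replicates 1, 2 and 3, against 1422, 1664 and 1989 in wild type replicates 1, 2 and 3. Mutant replicate 2 was just below wild type replicate 3, so the groups overlapped. Its change was 0.34 ± 0.12 (95% interval 0.080 to 0.59, limma adjusted p = 0.262) and 0.22 without wild type replicate 1.

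The gene model of *rpl22* overlaps that of *rps3*, and whether the probe set of either gene covers the overlap was not examined. *rpl22* had a signal of 6746, 7003 and 6043 in mutant replicates 1, 2 and 3, against 6039.7, 8608 and 7689.7 in wild type replicates 1, 2 and 3. Wild type replicates 2 and 3 lay above all mutant arrays and wild type replicate 1 below them. The change of *rpl22* was −0.16 ± 0.12 (95% interval −0.42 to 0.095, limma adjusted p = 0.659) and −0.30 without wild type replicate 1. *rpl36* averaged 8869.8 ± 1692 in mutant seedlings and 9014 ± 4016 in wild type seedlings. Its linear mean was thus lower in the mutant, while its log2 change was 0.083 ± 0.27 with all arrays and −0.37 without wild type replicate 1. *rpl14* had a change of −0.20 ± 0.15, the lowest of the 26, *rpl16* one of −0.0043 ± 0.11, *rpl32* one of 0.056 ± 0.11 and *rpl33* one of 0.037 ± 0.11. Without wild type replicate 1 the changes were −0.20 (*rpl14*), −0.017 (*rpl16*), 0.012 (*rpl32*) and −0.052 (*rpl33*), and *rpl36* was then the lowest of the 26.

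The polymerase genes encode the alpha, beta, beta′ and beta″ subunits of the plastid-encoded RNA polymerase (*rpoA*, *rpoB*, *rpoC1* and *rpoC2*), which transcribes most photosynthesis genes of mature chloroplasts. None of the 4 passed the test and their median change was 0.051, or −0.14 without wild type replicate 1, −0.074 without mutant replicate 1 and −0.13 when scaled to the plastid-encoded probe sets. *rpoB* had a signal of 1076, 787 and 1085 in mutant replicates 1, 2 and 3, against 516, 899 and 883 in wild type replicates 1, 2 and 3. Mutant replicates 1 and 3 were the highest arrays and wild type replicate 1 the lowest, while mutant replicate 2 lay below wild type replicates 2 and 3. Its change was 0.38 ± 0.19 (95% interval −0.016 to 0.78, limma adjusted p = 0.442) and 0.12 without wild type replicate 1.

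*rpoC2* had a signal of 1517, 1088 and 1093 in mutant replicates 1, 2 and 3, against 723, 1579 and 1365 in wild type replicates 1, 2 and 3. Wild type replicate 2 was the highest array and wild type replicate 1 the lowest, so the mutant lay within the range of the wild type. Its change was 0.068 ± 0.22 (limma adjusted p = 0.943), and −0.27 without wild type replicate 1. *rpoA* also had wild type replicate 2 highest and wild type replicate 1 lowest, with 11540.5, 9389 and 9809 in mutant replicates 1, 2 and 3, against 6343, 13809 and 12206 in wild type replicates 1, 2 and 3, a change of −0.0030 ± 0.21 (adjusted p = 0.998) and −0.35 without wild type replicate 1. *rpoC1* varied least of the 4, with 3632, 2812 and 3166 in mutant replicates 1, 2 and 3, against 2877, 3115 and 3358 in wild type replicates 1, 2 and 3. All 3 wild type values of *rpoC1* lay within the range of the mutant, at a change of 0.035 ± 0.11 (adjusted p = 0.94) and −0.021 without wild type replicate 1.

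For these 4 genes wild type replicate 1 lay below the mean of wild type replicates 2 and 3 by a log2 difference of −1.03 (*rpoA*), −1.01 (*rpoC2*), −0.77 (*rpoB*) and −0.17 (*rpoC1*). *rpoC1* thus departed from *rpoB* and *rpoC2*, its neighbours in the same transcription unit. The median of that difference was −0.12 over the small-subunit genes, −0.27 over the large-subunit genes, −0.44 over the 7 others and −0.45 over the photosynthetic genes. These are descriptions of 1 array and were not tested between classes.

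**Figure D2:**
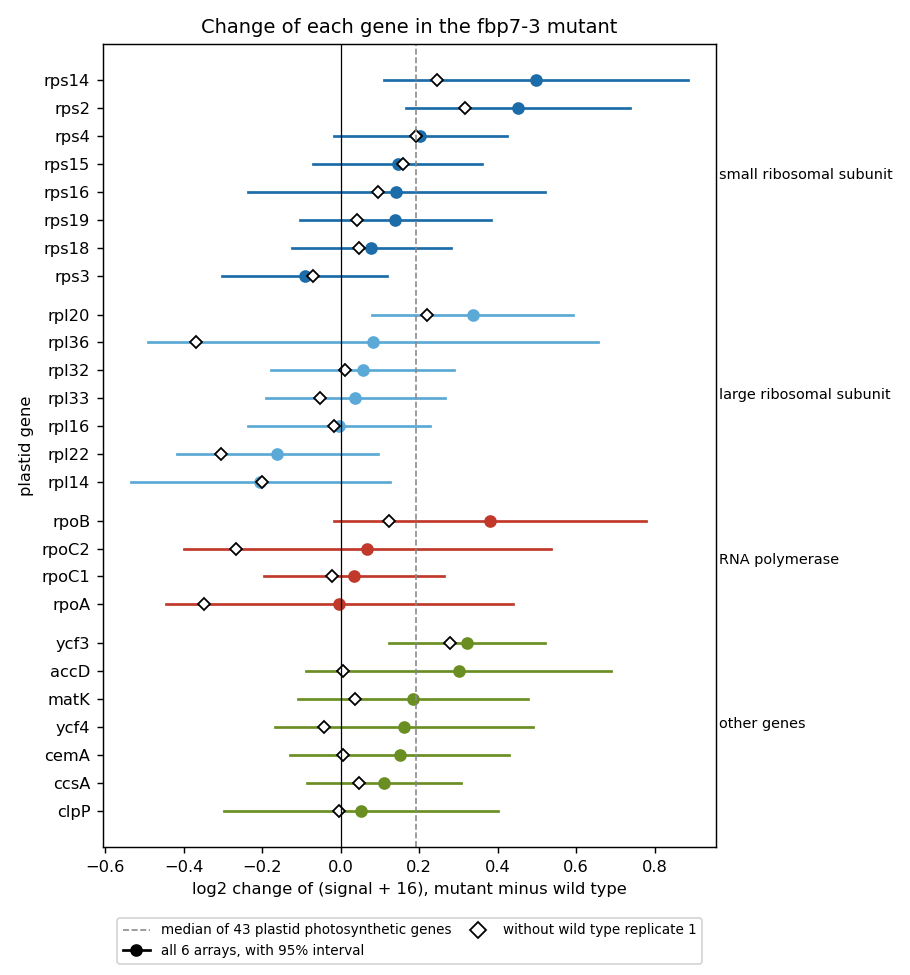
Log2 change of each of the 26 genes, mutant minus wild type, by class: filled circles with 95% intervals are all 6 arrays, open diamonds leave out wild type replicate 1, and the dashed line is the median of the plastid photosynthetic genes (0.19). Intervals of *rps14*, *rps2*, *rpl20* and *ycf3* lie above 0 before adjustment, and the diamonds lie left of the circles for most genes and below 0 for 3 of the 4 polymerase genes.

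The remaining 7 genes include *matK*, for a maturase that assists intron splicing, and *clpP*, for a catalytic subunit of the Clp protease. *accD* encodes the beta subunit of the carboxyltransferase of acetyl-CoA carboxylase. The others encode assembly factors of photosystem I (*ycf3* and *ycf4*), an inner envelope protein (*cemA*) and a factor for attachment of heme to c-type cytochromes (*ccsA*). All 7 had a change above 0, with a median of 0.16, and none passed the test. Without wild type replicate 1, 5 lay above 0 with a median of 0.0049, with quantile normalization 6 did, and scaled to the plastid-encoded probe sets 3 did, with a median of −0.017. *ycf3* had a signal of 2348, 2555 and 2413 in mutant replicates 1, 2 and 3, against 1829, 1951 and 2067 in wild type replicates 1, 2 and 3. Its groups were apart and its replicates close. *ycf3* had a change of 0.32 ± 0.093 (95% interval 0.12 to 0.52, limma adjusted p = 0.135), which ran from 0.28 to 0.37 when each array was left out in turn.

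*ycf4*, the other assembly factor, had a signal of 3790.4, 3249 and 3164 in mutant replicates 1, 2 and 3, against 2284, 3974 and 3062 in wild type replicates 1, 2 and 3. Wild type arrays spanned the mutant range on both sides. Its change was 0.16 ± 0.15 (limma adjusted p = 0.745) and −0.041 without wild type replicate 1. For *accD* the signals were 2152, 1921 and 1876 in mutant replicates 1, 2 and 3, against 1059, 1991 and 1953 in wild type replicates 1, 2 and 3. Apart from the low value of wild type replicate 1, the groups interleaved, and the change of *accD* was 0.30 ± 0.18 (adjusted p = 0.561) with all arrays and 0.0049 without that array.

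*matK*, which lies inside the intron of a transfer RNA gene, had a signal of 14102, 10786 and 11229.5 in mutant replicates 1, 2 and 3, against 8545, 12710.0 and 10689.9 in wild type replicates 1, 2 and 3. The groups overlapped, at a change of 0.19 ± 0.14 (limma adjusted p = 0.656) and 0.036 without wild type replicate 1. *clpP* was set apart by mutant replicate 1, at 15352, 8845 and 9411 in mutant replicates 1, 2 and 3, against 9676, 11755 and 10068 in wild type replicates 1, 2 and 3. Mutant replicates 2 and 3 lay below all wild type arrays and mutant replicate 1 above them. The change of *clpP* was 0.053 ± 0.16 (adjusted p = 0.94) and −0.20 without mutant replicate 1. *cemA* averaged 9117 ± 855 in mutant seedlings and 8311 ± 1744 in wild type seedlings, a change of 0.15 ± 0.13, and *ccsA* averaged 12476 ± 249.7 in mutant seedlings and 11582 ± 888 in wild type seedlings, a change of 0.11 ± 0.092. These changes were 0.0049 (*cemA*) and 0.048 (*ccsA*) without wild type replicate 1.

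Array by array, the class medians of the centred log2 signals showed how far the classes moved together. For the small-subunit genes the median was 0.14, 0.045 and 0.14 on mutant arrays 1, 2 and 3, and −0.14, 0.070 and −0.10 on wild type arrays 1, 2 and 3. For the large-subunit genes it was 0.11, 0.015 and −0.038 on mutant arrays 1, 2 and 3, and −0.20, 0.22 and 0.076 on wild type arrays 1, 2 and 3. The polymerase genes had medians of 0.27, −0.12 and −0.025 on mutant arrays 1, 2 and 3, and −0.70, 0.24 and 0.14 on wild type arrays 1, 2 and 3. The 7 other genes had medians of 0.24, 0.019 and 0.0026 on mutant arrays 1, 2 and 3, and −0.37, 0.16 and −0.068 on wild type arrays 1, 2 and 3. In the small-subunit and the other genes 2 wild type arrays, replicates 1 and 3, lay below all mutant arrays, while in the large-subunit and polymerase genes only wild type replicate 1 did, and every class had wild type replicate 2 above at least 1 mutant array. No p is given for these medians, since the genes share arrays and are not replicates.

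**Figure D3:**
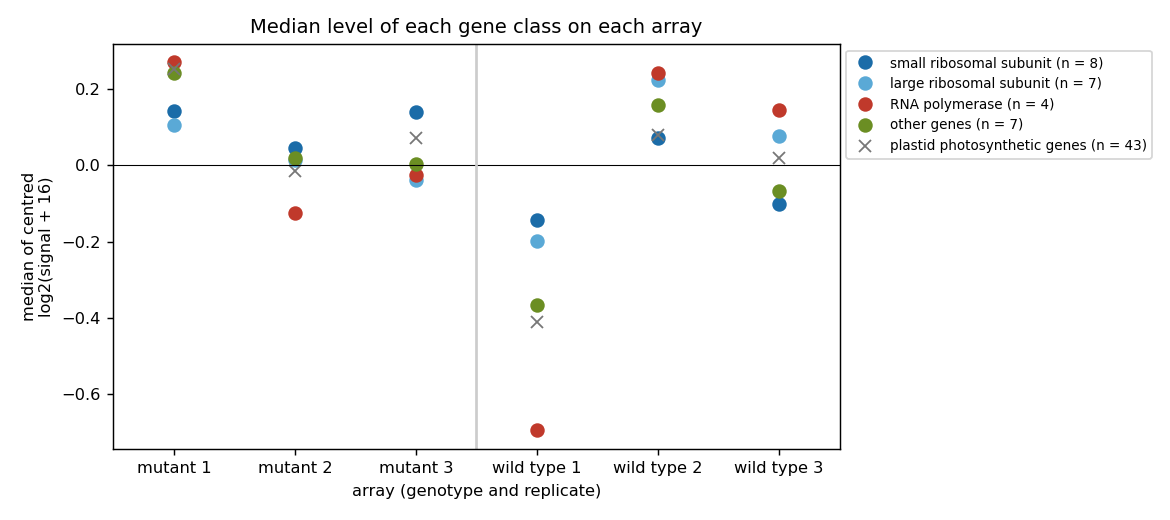
Median of the centred log2(signal + 16) over the genes of each class (vertical axis) on each array (horizontal axis, mutant left of wild type), with the plastid photosynthetic genes as crosses. On wild type replicate 1 the medians run from −0.70 (polymerase) to −0.14 (small subunit), and on the other 5 arrays all classes lie between −0.12 and 0.27.

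By transcription unit, the 5 genes with a change below 0 over all 6 arrays, *rpoA*, *rpl14*, *rpl16*, *rps3* and *rpl22*, belong to the large ribosomal protein gene cluster. Of these 5, *rpoA* (−0.0030 ± 0.21) and *rpl16* (−0.0043 ± 0.11) lay close to 0. The measured genes *rpl2* (0.021 ± 0.092) and *rpl23* (0.18 ± 0.14) are not among the 26 and not in these counts. Of the 10 genes listed for the cluster, 7 are among the 26. The 2 of these 7 above 0 were *rpl36* (0.083 ± 0.27) and *rps19* (0.14 ± 0.11), and the median of the 7 was −0.0043. Without wild type replicate 1 there were 11 of the 26 below 0, and 6 of them were of this cluster, whose median was then −0.20. Those outside it were *rpl33*, *rpoC1*, *rpoC2*, *ycf4* and *clpP*. Of the 7 in the cluster, *rpoA*, *rpl36*, *rpl22* and *rps19* were lowest on wild type replicate 1, while *rpl14*, *rpl16* and *rps3*, which lie between *rpl36* and *rpl22*, differed there from the mean of wild type replicates 2 and 3 by 0.010, −0.039 and 0.064 on the log2 scale. The count of 5 also moves with scaling, to 3 of the 26 with arrays centred on the median, 7 with quantile normalization and 18 with scaling to the plastid-encoded probe sets. Without wild type replicate 2 there were 3 below 0, *rpl14* (−0.055), *rpl22* (−0.049) and *rps3* (−0.044). With the RNA quality covariate there were also 3, *rpl16* (−0.13), *rps3* (−0.036) and *rps16* (−0.11), the last of them outside the cluster.

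The *rpoB* unit, taken here with the adjoining *rps2*, 4 genes, had changes from 0.035 to 0.45 and a median of 0.22. Whether *rps2* is transcribed with the *rpo* genes in these seedlings was not tested. Its outer genes *rpoB* and *rps2* had the larger values and the inner *rpoC1* and *rpoC2* the smaller, and without wild type replicate 1 the values were 0.32 (*rps2*), −0.27 (*rpoC2*), −0.021 (*rpoC1*) and 0.12 (*rpoB*). Beyond *rps2* lie the ATP synthase genes *atpI*, *atpH*, *atpF* and *atpA*. Their changes were 0.64 ± 0.18 (*atpI*), 0.33 ± 0.16 (*atpH*), 0.39 ± 0.15 (*atpF*) and 0.093 ± 0.15 (*atpA*). Without wild type replicate 1 they were 0.38 (*atpI*), 0.088 (*atpH*), 0.19 (*atpF*) and −0.077 (*atpA*). The 3 genes *accD*, *ycf4* and *cemA* had a median of 0.16, and the photosynthetic genes on that stretch had −0.0096 ± 0.16 (*psaI*) and 0.23 ± 0.14 (*petA*). Leaving out wild type replicate 1, the median of the 3 was 0.0049, and *psaI* had −0.17 and *petA* 0.030. *rpl33* and *rps18* had values within 0.037 to 0.078, and *rpl20* and *clpP* differed, at 0.34 ± 0.12 and 0.053 ± 0.16. Scaled to the plastid-encoded probe sets, the genes of these units below 0 were *rpoC1*, *rpoC2*, *rpl33*, *rps18*, *clpP*, *ycf4* and *cemA*.

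**Figure D4:**
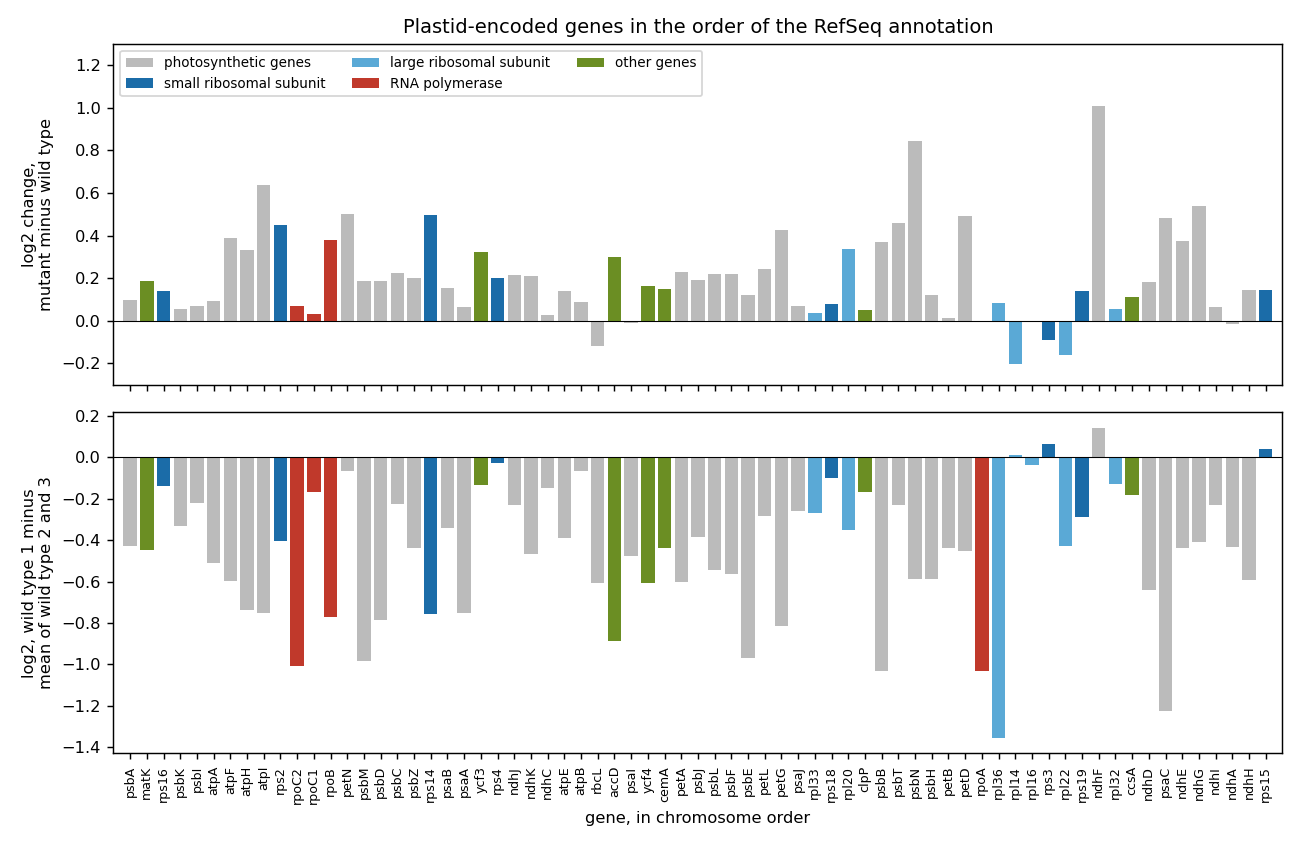
The 69 plastid-encoded genes with 1 probe set each in the order of the RefSeq annotation (horizontal axis), coloured by class, with the log2 change, mutant minus wild type, above and the difference of wild type replicate 1 from the mean of wild type replicates 2 and 3 below. With all 6 arrays the 5 genes of the 26 below 0 lie between *rpoA* and *rpl22* in the upper panel (18 lie below 0 when arrays are scaled to the plastid-encoded probe sets), and in the lower panel *rpl36* has the lowest bar (−1.35).

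Plastid ribosomes, the Clp protease and the other complexes hold nuclear-encoded proteins too, and 98 nuclear loci in 8 lists, taken from general knowledge of Arabidopsis, were looked up. Of these 19 had a tested single-gene probe set in the annotation used here. None of the 19 passed (limma adjusted p under 0.05), where 1.06% of all tested probe sets did, so a count of 0 is near that share. At an unadjusted p under 0.05 there were 3, a share near the 11.8% of all tested probe sets. The 9 loci listed for nuclear-encoded plastid ribosomal proteins held all 3: AT1G29070 (0.22 ± 0.091, adjusted p = 0.345), AT2G43030 (0.20 ± 0.088, adjusted p = 0.381) and AT1G64510 (0.24 ± 0.11, adjusted p = 0.416), the last of them named after its values were seen. The first 2 had signals of 7945 ± 320.4 in mutant seedlings and 6823 ± 485 in wild type seedlings, and of 13828 ± 478 in mutant seedlings and 12023 ± 435 in wild type seedlings. All 3, which have the smallest p of the list, had every mutant array above every wild type array (8.45% of all tested probe sets). AT1G64510 was lowest on wild type replicate 1, at 3785, against 4915 and 5078 in wild type replicates 2 and 3. AT1G29070 and AT2G43030 were lowest on wild type replicate 2. The list had 8 of 9 above 0 (49.9% of all tested probe sets) and a median of 0.15, all with wild type replicate 1 included.

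The nuclear Clp protease list had 5 tested loci, with a median of 0.061, and the smallest p for AT4G12060 (0.13 ± 0.12) and AT1G09130 (0.092 ± 0.092). Of 3 loci listed beside *ycf3*, *ycf4* and *ccsA*, *CcdA* had −0.065 ± 0.10 and AT1G49380 0.020 ± 0.13, at a median of 0.011. The translation factor gene *FUG1* had −0.068 ± 0.10. The single locus tested from the list of sigma factors and phage-type polymerases, AT5G15700, had −0.30 ± 0.24 at low signals, 76.1 ± 5.25 in mutant seedlings and 98.0 ± 13.8 in wild type seedlings, with all mutant arrays below all wild type arrays, as 8.56% of all tested probe sets had. Proteins bound to the plastid-encoded polymerase, acetyl-CoA carboxylase subunits and envelope partners had no tested locus. Whether loci without a tested probe set were unnamed in the annotation, absent from the array or filtered out was not examined. The counts and medians of these lists cover only the loci found, not the whole lists.

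Control ratios of RNA quality moved with the genotype. The 3′ to 5′ signal ratio was higher on every mutant array in 3 of 6 control pairs, and the mean log2 ratio over the 6 pairs was 1.07, 1.10 and 1.33 in mutant replicates 1, 2 and 3, against 1.00, 0.88 and 0.99 in wild type replicates 1, 2 and 3 (two-sided exact permutation p = 0.1, the smallest that 3 against 3 allows). With that mean as a covariate none of the 26 genes passed, and their median change was 0.32, with 23 above 0. In that fit 8121 of 17059 tested probe sets lay above 0, with a median of −0.016. The mean log2 ratio was higher on every mutant array, so this covariate and genotype cannot be separated on 6 arrays. The fit thus gives no change corrected for RNA quality.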

How the data were processed

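Total RNA of seedlings was labelled and hybridised to ATH1 arrays, 1 per sample, per the labels' protocols. The authors deposited 1 signal intensity per probe set on a linear scale, made with MAS5 according to the submitters' processing notes. The MAS5 version is a detail not given in the sources used here. All arrays had the same trimmed mean as deposited, and medians ran from 189.7 to 201.7. The number of arrays limits the precision. These were used as log2(signal + 16) without renormalizing, and the lowest 25% of probe sets by mean over the 6 arrays were left out, leaving 17059. Groups, taken from titles, entered a linear model fitted by limma 3.58.1 under R 4.3.3, with lmFit, then eBayes with an intensity trend and Benjamini-Hochberg adjustment. SEs are moderated, with 4 residual and a median of 10.4 prior degrees of freedom. The fit was also run on simulated data in which noise was independent between probe sets. Deviations shared by many probe sets of an array were not simulated, so that run cannot speak to them. Figures used matplotlib 3.10.9.

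Of 13513 probe sets with 1 gene in the platform's annotation, 13436 were found in RefSeq (TAIR10.1), which gave symbols and gene order. No coordinates are given because no build is named, and no sequence is shown. The members and lists were chosen with earlier results of these data known. Genes given with all 6 values are the 4 *rpo* genes, *matK*, *clpP*, *accD*, *ycf3*, *ycf4*, any called gene and the 2 with the smallest p per class. Of each nuclear list the 2 with the smallest p are named. Alternatives were other pseudocounts, filters, normalizations, variance models, weights, a replicate block, an RNA quality covariate and each array left out.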

Additional observations from a re-analysis of the deposited data

Results flagged for a closer look

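The control measures outside the gene comparison were 6 ratios and 2 ribosomal RNA probe sets, 8 in all. In 4 of the 8 every mutant array lay above every wild type array, an order that 8.45% of all tested probe sets had. The 4 are described here because of that order. With 3 against 3 samples the order alone fixes the exact permutation p at 0.1 (two-sided), so that p adds nothing to it. For GAPDH controls the ratio of 3′ over 5′ signal was 3.13 ± 0.313 (SD, n = 3) on mutant arrays and 2.50 ± 0.0663 (n = 3) on wild type arrays in the first series of controls, and 1.36 ± 0.123 (SD, n = 3) on mutant arrays and 1.14 ± 0.106 (n = 3) on wild type arrays in the second series. The ubiquitin ratio of the first series was 3.79 ± 0.291 (SD, n = 3) on mutant arrays and 3.40 ± 0.121 (n = 3) on wild type arrays. The 5S ribosomal RNA control measured 1572 ± 107 (SD, n = 3) on mutant arrays and 1055 ± 327 (n = 3) on wild type arrays, with its lowest value, 692, on wild type replicate 1, the array on which most of the plastid genes were lowest. The groups overlapped for both actin ratios, the second ubiquitin ratio and the 25S ribosomal RNA control, which measured 147 ± 32.7 (SD, n = 3) on mutant arrays and 137 ± 32.5 (n = 3) on wild type arrays (exact permutation p = 0.7).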

How the results depend on the processing

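The count of probe sets changed, 180, was 75 without the filter, 97 when arrays were scaled to the plastid-encoded probe sets, 6 without the intensity trend and 24 with the RNA quality covariate, and ran from 74 to 248 when each array was left out (89 and 74 without mutant replicates 2 and 3, 81 and 115 without wild type replicates 1 and 2). It was 211 with the replicate number as a block, which left 0 of the 26 genes called. Same-numbered samples did not deviate together over all tested probe sets (correlations of −0.0049, −0.025 and −0.032). A correlation over all probe sets cannot show whether they were handled together, since shared handling may touch few transcripts. None of the 26 passed under the alternatives run, nor at an adjusted p under 0.1 with all arrays, except *rps2* without wild type replicate 2, so that the count ran from 0 to 1. Scaled to the plastid-encoded probe sets, the median was −0.035 for small-subunit and −0.14 for large-subunit genes, and with the RNA quality covariate 0.25 for large-subunit, 0.35 for polymerase and 0.41 for the 7 other genes. Leaving out each array gave 0.12 to 0.20, −0.052 to 0.075, −0.14 to 0.25 and 0.0049 to 0.32 for small-subunit, large-subunit, polymerase and other genes. Adding the probe sets of repeated genes, chosen after seeing the data, moved no class median by more than the spread between arrays. Single values changed sign as follows, and the cause was not tested. With scaling to the plastid-encoded probe sets *rpoC1* was −0.14, *rpoC2* −0.11, *ycf4* −0.017 and *clpP* −0.13. With array weights *rpoC2* was −0.0023 and *clpP* −0.0097, and with quantile normalization *clpP* was −0.0097. *rpoA* was 0.019 with arrays centred on the median, and with the RNA quality covariate it was 0.31 and *rpl22* 0.081. Leaving out each array gave −0.060 to 0.12 for *rpoC1*, −0.27 to 0.29 for *rpoC2*, −0.35 to 0.21 for *rpoA*, −0.041 to 0.36 for *ycf4* and −0.20 to 0.20 for *clpP*. The other 212 values of the 13 genes given with all 6 signals kept their direction and stayed past or short of the threshold. Taking 1 probe set per gene changes nothing here, as each gene has 1.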

Other observations

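A further 7 probe sets measured plastid genes outside the 26 because the annotation lists 2 entries for each, the copies of the inverted repeat or the split gene *rps12*. None passed the test over all probe sets (limma, lowest adjusted p 0.477), none had an unadjusted p under 0.05, and the groups overlapped in all 7. Over all tested probe sets the shares were 1.06% changed, 11.8% at that unadjusted p and 17.0% with groups that did not overlap, so counts of 0 among 7 are near the background. *ycf2*, which encodes a large protein of the inner envelope, had a signal of 362, 296 and 333 in mutant replicates 1, 2 and 3, against 191, 301 and 295 in wild type replicates 1, 2 and 3. Its log2 change was 0.34 ± 0.18 (SE) and 0.14 without wild type replicate 1. *ycf1*, which encodes a protein of the import machinery of the inner envelope, had a signal of 5215 ± 1061 in mutant seedlings and 5313 ± 71.7 in wild type seedlings (SD, n = 3 each) and a change of −0.047 ± 0.12, the single value below 0 of the 7. The ribosomal protein gene *rpl2* differed least, with 24401 ± 1442 in mutant seedlings and 24018 ± 511 in wild type seedlings, a change of 0.021 ± 0.092. *rpl23*, its neighbour, had 0.18 ± 0.14, or −0.0062 without wild type replicate 1, and *rps7* had 0.12 ± 0.11. The 2 probe sets of *rps12* had 0.18 ± 0.15 and 0.20 ± 0.15.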
